A study of Homo sapiens with 14 samples.

Results

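Messenger RNA of 6 genes that make up the CXCR4, CXCL12 and apelin signalling axes was followed through human endoderm formation. The genes were taken by name, not by their values: the receptors CXCR4, ACKR3 and APLNR and the ligands CXCL12, APLN and APELA. All 6 were among the 63677 gene identifiers counted in 12 bulk RNA-seq libraries of H9, an established human embryonic stem cell line. In single nuclei of H9 gastruloids, 5 of them were among the 17493 genes counted. Gastruloids are aggregates of stem cells that elongate in culture, made here with CHIR, a GSK-3 inhibitor. APLN was not analysed in the nuclei. The bulk libraries formed 5 groups. Undifferentiated hESC were kept in mTSER Plus on matrigel (2 libraries, with no dCAS9-KRAB named in their labels). Definitive endoderm was made with 3 days of Activin, and CHIR on the first 2, from cells that carried dCAS9-KRAB. This is a repressor guided to DNA by an sgRNA. Endoderm was sequenced without an sgRNA (endoderm control, 3 libraries) and with the sgRNA against LTR5, the long terminal repeat of the endogenous retrovirus HERVK (endoderm with sgRNA, 3 libraries). Foregut was likewise sequenced without (foregut control, 2 libraries) and with this sgRNA (foregut with sgRNA, 2 libraries). dCAS9-KRAB came in by lentivirus, and the cells were kept under puromycin selection. The foregut libraries were grouped by their titles, because their status and medium labels name hESC or endoderm without sgRNA.

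CXCR4 is a G protein-coupled receptor for the chemokine CXCL12. ACKR3 binds CXCL12 too, but signals mainly through beta-arrestin and removes the ligand from the cell's surroundings. APLNR, also a G protein-coupled receptor, has a pair of peptide ligands, apelin (from APLN) and ELABELA (from APELA). In the vertebrate gastrula both systems steer the movement of mesoderm and endoderm cells, and CXCR4 on the cell surface is a usual marker of definitive endoderm.

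On GRCh37, the build of the bulk counts, CXCR4 (ENSG00000121966) lies at chr2:136871919-136876747 on the minus strand, and ACKR3 (ENSG00000144476) at chr2:237476430-237490997 on the plus strand. CXCL12 (ENSG00000107562) lies at chr10:44865613-44881941, APLNR (ENSG00000134817) at chr11:57001051-57004724 in a single exon, and APLN (ENSG00000171388) at chrX:128779236-128788933, all on the minus strand. APELA (ENSG00000248329) lies at chr4:165798330-165820117 on the plus strand. The 4 members with an entry in the RefSeq promoter table (GRCh38.p14) are given here from 250 bases before to 50 bases after their first start. Each of these windows overlapped an open chromatin peak of the gastruloid ATAC library, that of APLN only in part. Capitals mark matches to the 5 motifs searched on both strands: the TATA box TATAAA, the GATA site AGATAA, the SOX site AACAAT, the hypoxia response core ACGTG and the octamer ATGCAAAT.
CXCR4, chr2:136118100-136118399, minus strand: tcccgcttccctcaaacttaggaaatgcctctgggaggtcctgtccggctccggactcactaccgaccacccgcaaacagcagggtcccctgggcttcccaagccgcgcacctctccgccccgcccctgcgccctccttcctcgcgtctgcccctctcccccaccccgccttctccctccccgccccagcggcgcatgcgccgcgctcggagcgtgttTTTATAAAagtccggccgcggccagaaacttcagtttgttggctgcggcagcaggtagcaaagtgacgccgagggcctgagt
APELA, chr4:164876928-164877227, plus strand: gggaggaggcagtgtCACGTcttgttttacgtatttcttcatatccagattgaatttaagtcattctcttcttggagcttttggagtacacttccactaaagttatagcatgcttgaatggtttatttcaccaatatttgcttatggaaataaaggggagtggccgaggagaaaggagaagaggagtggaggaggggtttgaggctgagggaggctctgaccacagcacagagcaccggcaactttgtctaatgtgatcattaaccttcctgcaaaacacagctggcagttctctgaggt
CXCL12, chr10:44385048-44385347, minus strand: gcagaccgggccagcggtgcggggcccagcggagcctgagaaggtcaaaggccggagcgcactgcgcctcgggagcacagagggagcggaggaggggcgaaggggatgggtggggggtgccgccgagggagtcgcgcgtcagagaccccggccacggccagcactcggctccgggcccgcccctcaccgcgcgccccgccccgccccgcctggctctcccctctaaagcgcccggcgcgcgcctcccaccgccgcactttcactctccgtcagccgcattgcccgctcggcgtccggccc
APLN, chrX:129654907-129655206, minus strand: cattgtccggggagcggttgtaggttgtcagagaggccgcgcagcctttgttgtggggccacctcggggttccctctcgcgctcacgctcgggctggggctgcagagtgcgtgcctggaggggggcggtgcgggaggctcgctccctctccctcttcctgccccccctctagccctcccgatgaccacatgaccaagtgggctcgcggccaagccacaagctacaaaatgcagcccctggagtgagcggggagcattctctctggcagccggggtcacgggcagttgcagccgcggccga
The CXCR4 window held a TATA box at position −30 relative to the start, on the coding strand, overlapped by the same motif read on the other strand. Of all 35116 promoters in the table, 11.5% held this motif. The APELA window held the hypoxia response core on the other strand at position −235, a motif found in 21.4% of promoters. Neither the CXCL12 nor the APLN window matched any of the 5 motifs, and no member's window held the GATA site (10.3% of promoters), the SOX site (10.1%) or the octamer (1.77%). The peaks over these windows were at chr2:136117859-136118685 for CXCR4, chr4:164876670-164877574 for APELA, chr10:44384653-44385497 for CXCL12 and chrX:129654241-129655138 for APLN. APLNR also had a peak over its start, at chr11:57237017-57237943. No peak lay over the start of ACKR3 in RefSeq, chr2:236537122: the nearest was 8928 bp away, although 7 peaks lay inside the gene. The RefSeq span, which ends at chr2:236582354, is longer than the GRCh37 span given above. Starts further inside it were not checked for a peak. By comparison, 58.4% of the promoters in the table had a peak over them. The peaks came from 1 library, so they have no replicate check.

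The libraries held between 11583063 and 37152434 reads in genes, so that 3 reads corresponded to between 0.0770 and 0.252 CPM (counts-per-million). Mitochondrial transcripts took between 8.30% and 34.7% of the reads. Log2 CPM correlated between 0.920 and 0.992 within groups. The methods call the RNA-seq replicates biologically independent without saying what was independent, and p-values below measure the spread between these libraries. The 7 endoderm markers (CER1, SOX17, EOMES and others) were all called higher in endoderm control than in hESC. Of the 5 foregut markers tested, 3 were called higher in foregut control than in endoderm control, FOXA1 and PDX1 among them, and 0 lower. The called markers thus followed the stages in the titles. Reads in LTR5 integrants, scaled like CPM to the reads in genes, ran from 22.8 to 24.8 in endoderm control and from 12.0 to 16.8 with sgRNA, and from 18.0 to 21.5 in foregut control and from 10.0 to 13.3 with sgRNA. The foregut libraries were submitted apart from the others, so stage and batch cannot be told apart.

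All 3 receptors were near their lowest level in hESC and became abundant in endoderm. CXCR4 was measured at 7.18 and 4.24 CPM in the hESC libraries and at 362, 286 and 236 CPM in the endoderm control libraries. It rose 52.8-fold (log2 fold change 5.72 ± 0.30 (SE), edgeR adjusted p = 2.0e-09, from the quasi-likelihood test with Benjamini-Hochberg adjustment over all genes), the groups lying far apart. Here and below a gene was called when its adjusted p was under 0.05 and its fold change over 2, and by this rule 26% of the 20818 genes tested were called between hESC and endoderm control, 14.2% higher and 11.8% lower in endoderm.

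ACKR3, the scavenging receptor, had 0.822 and 1.11 CPM in hESC and 28.9, 89.1 and 65.2 CPM in endoderm control. Its rise of 64.2-fold (log2 6.0 ± 0.46, edgeR adjusted p = 8.9e-08) left the groups far apart, and its endoderm libraries spread more widely than those of CXCR4, with replicate 1 the lowest. APLNR went from 0.822 and 0.576 CPM to 325, 144 and 287 CPM. It rose 368-fold (log2 8.52 ± 0.44, edgeR adjusted p = 1.3e-09), the largest change of the 6 genes in this comparison. In whole-culture RNA, fewer cells of a type and less RNA per cell cannot be told apart, here and in all bulk values below. The 9 markers of primitive streak and mesoderm, cells that also carry APLNR, summed to between 3.04 and 4.19 CPM in hESC and to between 742 and 1229 CPM in endoderm control, with MEOX1 at 0 in both groups. Their part in the receptor values was not tested.

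The ligands did not follow the receptors. APELA, a peptide gene known for its expression in undifferentiated human stem cells, was measured at 15.1 and 22.6 CPM in hESC and at 0.598, 0.645 and 0 CPM in endoderm control. APELA fell 41.4-fold (log2 −5.37 ± 0.48, edgeR adjusted p = 4.7e-07), or by log2 −6.10 under limma-voom. CXCL12 had 53.0 and 57.3 CPM in hESC and 40.1, 20.6 and 21.1 CPM in endoderm control. Every endoderm library was below both hESC libraries, as for 30.6% of all genes tested, yet the change of 1.98-fold stayed just under the fold limit (log2 −0.98 ± 0.26, edgeR adjusted p = 0.0065). Without endoderm control replicate 1, which had the highest CXCL12 of its group, the change was log2 −1.37 and was called (edgeR adjusted p = 2.0e-09). APLN stayed low, at 3.33 and 3.21 CPM in hESC and 5.23, 3.22 and 1.56 CPM in endoderm control, with overlapping groups (log2 0.07 ± 0.39, edgeR adjusted p = 0.903). Thus 3 of 3 receptors were called higher, 1 of 3 ligands was called lower, and none of the ligands was called higher.

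**Figure D1:**
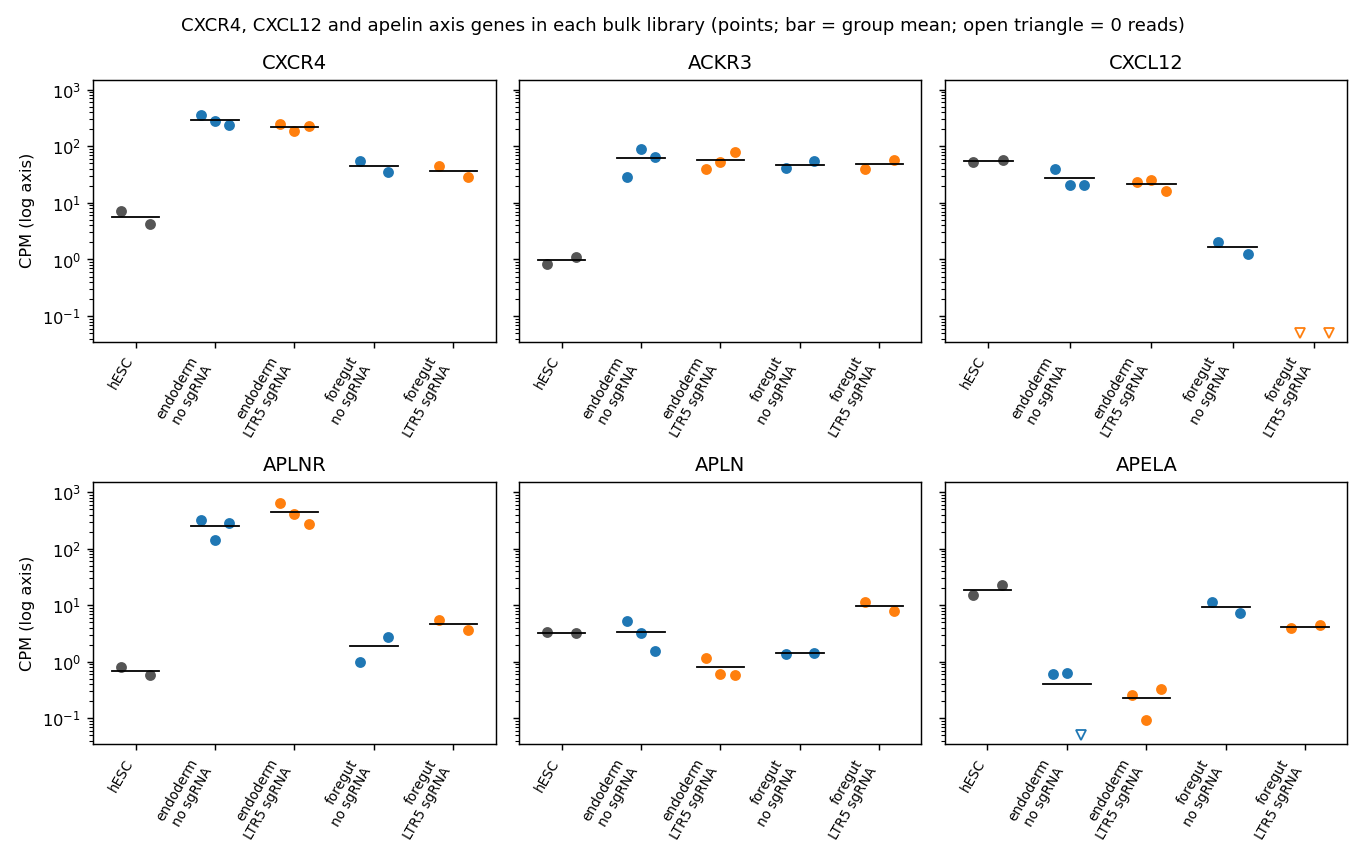
Level of each gene in CPM (log axis) in every bulk library, grouped by stage and sgRNA. Points are libraries, bars are group means, and open triangles at the bottom stand for 0 reads. The 3 receptors are near the bottom in hESC and high in endoderm, while APELA is high in hESC and foregut and CXCL12 is at 0 reads in both foregut libraries with sgRNA.

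At the foregut stage the receptors parted. CXCR4 had 55.4 and 34.7 CPM in foregut control, below each endoderm control library, and fell 6.55-fold (log2 −2.71 ± 0.30, edgeR adjusted p = 1.8e-04). APLNR dropped to 0.974 and 2.77 CPM and fell 132-fold (log2 −7.05 ± 0.59, edgeR adjusted p = 4.5e-05), close to where it had been in hESC. Without foregut control replicate 2, the higher of the pair, its change was log2 −7.95. The 9 streak and mesoderm markers went the same way, from sums between 742 and 1229 CPM in endoderm control to between 41.9 and 62.3 CPM in foregut control, with 6 called lower, 1 called higher and MSGN1 and FOXF1 at 0 in foregut control. Their part in the APLNR values was not tested. ACKR3 alone of the 3 receptors kept a level within the endoderm range, at 41.2 and 54.1 CPM (log2 −0.36 ± 0.41, edgeR adjusted p = 0.501). Among all 21466 genes tested in this comparison, which shares the endoderm control libraries with the comparison above, 29% were called, 14.1% higher and 15% lower in foregut.

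The ligands moved in opposite directions. APELA came back, from at most 0.645 CPM in endoderm control to 11.3 and 7.44 CPM in foregut control, and rose 21.5-fold (log2 4.42 ± 0.75, edgeR adjusted p = 0.0020), or by log2 5.15 under limma-voom. CXCL12 went on down, to 2.05 and 1.26 CPM, and fell 16.6-fold (log2 −4.05 ± 0.45, edgeR adjusted p = 2.0e-04). APLN, at 1.40 and 1.46 CPM, lay just below the lowest endoderm control library, as 33.4% of all genes tested lay lower without overlap, and was not called (log2 −1.23 ± 0.56, edgeR adjusted p = 0.122).

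The same step between the libraries with sgRNA, which share none with the control comparison, gave the following values, with 26.3% of 20735 genes called, 12.9% higher and 13.4% lower. CXCR4 fell (log2 −2.54 ± 0.29, edgeR adjusted p = 6.5e-04), from 245, 187 and 226 CPM in endoderm with sgRNA to 44.5 and 29.1 CPM in foregut with sgRNA. APLNR fell (log2 −6.55 ± 0.50, edgeR adjusted p = 1.3e-04), from 629, 416 and 272 CPM to 5.48 and 3.67 CPM. ACKR3 again overlapped, with 40.0, 53.2 and 78.5 CPM in endoderm and 39.7 and 57.3 CPM in foregut (log2 −0.20 ± 0.32, edgeR adjusted p = 0.643). Thus CXCR4 and APLNR, but not ACKR3, were called lower in foregut than in endoderm both with and without the sgRNA.

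Of the ligands with sgRNA, APELA rose from 0.264, 0.0956 and 0.336 CPM to 3.92 and 4.46 CPM (log2 4.22 ± 0.81, edgeR adjusted p = 0.0067). CXCL12 went from 23.3, 25.1 and 16.0 CPM to no read in either foregut library, at least 179-fold lower when each foregut library is set to 3 reads, and was called lower. APLN rose 12.4-fold, from 1.19, 0.621 and 0.588 CPM to 11.6 and 8.04 CPM (log2 3.64 ± 0.53, edgeR adjusted p = 0.0020), where the control libraries had shown no call. Endothelial genes moved at this step too, and apelin is a known product of endothelial cells: CDH5 and TIE1 were called higher in foregut both with and without the sgRNA. KDR, the receptor for VEGF, had the opposite sign and was called lower in the control libraries (log2 −1.77) but not with sgRNA (−0.74). Of the 6 endothelial and blood markers matched, 4 were called higher and none lower between the libraries with sgRNA, and 3 higher and 1 lower between the controls. Their sum went from between 47.5 and 108 CPM in endoderm to between 147 and 194 CPM in foregut with sgRNA, whereas in control it was between 71.7 and 153 CPM in endoderm and between 80.1 and 111 CPM in foregut. Their part in the APLN values was not tested.

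**Figure D2:**
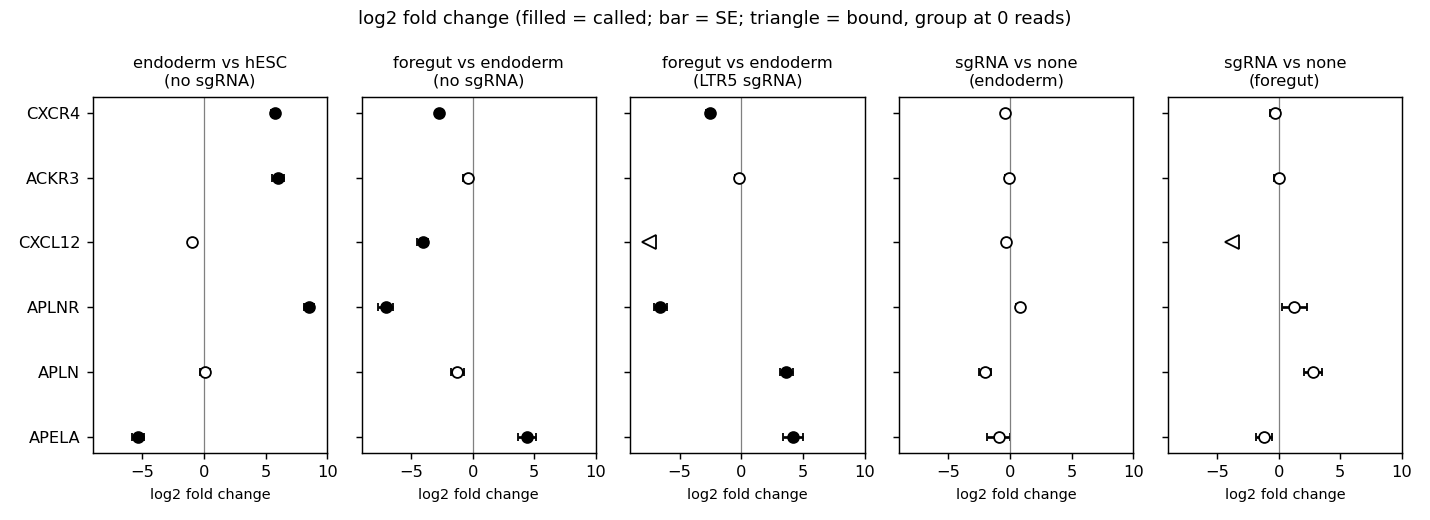
log2 fold change of each gene in 5 comparisons (horizontal axis), with the SE as the bar. Filled points were called by edgeR at an adjusted p under 0.05 and a fold over 2, open points were not, and triangles mark the bound for CXCL12 where 1 group had no read. The 3 panels of stage changes hold filled points for CXCR4 and APLNR throughout, and the 2 panels of sgRNA changes hold none.

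Each receptor was set against its ligand in RNA per kilobase of exon, to allow for the lengths of the genes. The length was the union of all annotated exons, not that of the isoforms expressed. The ratios are therefore approximate, and they do not measure protein. In hESC the ligands were ahead: the ratio of CXCR4 to CXCL12 was 0.287 and 0.157, that of ACKR3 to CXCL12 was 0.0460 and 0.0575, and that of APLNR to APELA was 0.0433 and 0.0202. In endoderm control all 3 ratios had turned. CXCR4 exceeded CXCL12 19.1, 29.4 and 23.7 times, ACKR3 exceeded CXCL12 2.14, 12.8 and 9.18 times, and APLNR exceeded APELA 431 and 178 times in replicates 1 and 2, with no APELA read in replicate 3.

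In foregut control the CXCL12 and apelin axes differed. CXCR4 was 57.3 and 58.5 times the level of CXCL12 per kilobase, both above every endoderm library. The ratio of APLNR to APELA, by contrast, was back under 1, at 0.0683 and 0.296. With sgRNA this ratio was 1.11 and 0.654 in foregut, between the values of foregut control and endoderm. APLN was below APLNR per kilobase in endoderm control, by 54.4, 39.3 and 161 times, and in endoderm with sgRNA, by 465, 588 and 406 times. It was above APLNR in hESC and in foregut with sgRNA, where the ratio of APLNR to APLN was 0.415 and 0.401. In foregut control the ratio was 0.612 in replicate 1 and 1.66 in replicate 2, so neither gene was ahead in both libraries. In mean CPM per kilobase, APLNR in endoderm with sgRNA (120) and CXCR4 in endoderm control (102) were the highest levels of any member, followed by CXCR4 in endoderm with sgRNA (75.6) and APLNR in endoderm control (68.6), and these neighbouring levels overlapped between libraries.

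**Figure D3:**
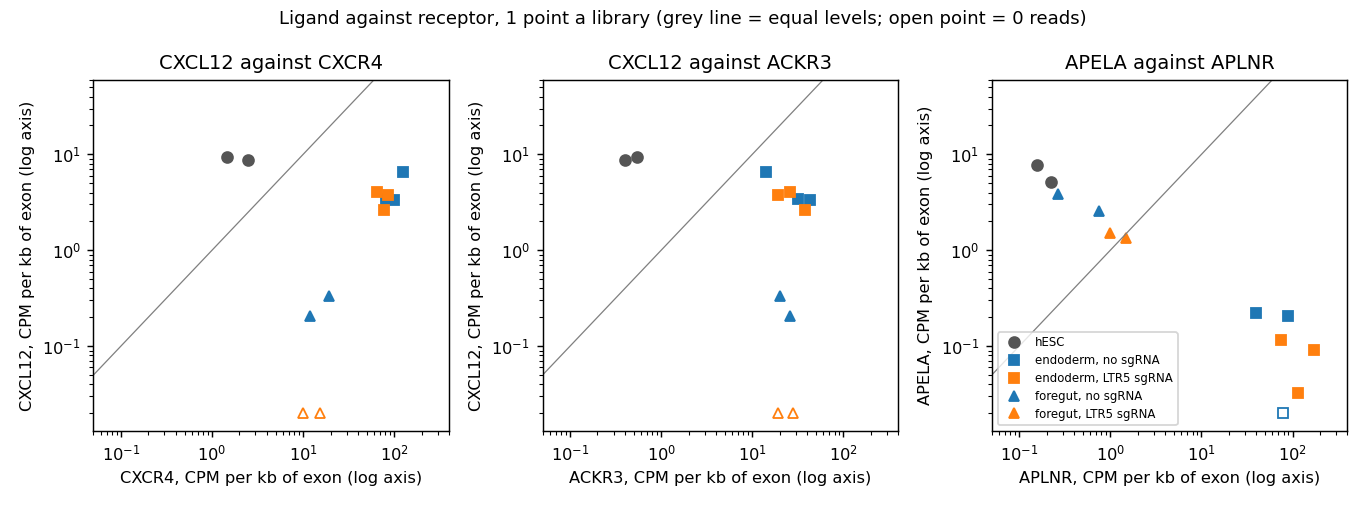
Ligand level against receptor level, both in CPM per kilobase of exon on log axes, with 1 point per bulk library and a grey line where both are equal. Open points had 0 ligand reads and are drawn at the bottom. The hESC points lie above the line in all 3 panels, all endoderm points lie below it, and the foregut control points lie below it for CXCL12 and above it for APELA.

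The sgRNA against LTR5 did not change any of the 6 genes by the call rule at the endoderm stage, where 0.0343% of the 20407 genes tested (7 genes) were called. At an unadjusted p under 0.05, 1056 genes passed, APLN and APLNR among them, and limma-voom and DESeq2 called 0 of the 6 members too. APLN was the only member whose groups did not overlap: 5.23, 3.22 and 1.56 CPM in endoderm control against 1.19, 0.621 and 0.588 CPM with sgRNA (log2 −2.04 ± 0.46, edgeR adjusted p = 0.254). Of all genes tested, 5.94% lay lower without overlap in this way. When genes were tested without a filter on low counts, APLN was called (log2 −2.05, edgeR adjusted p = 2.6e-04), and 186 genes were. APLNR had the opposite sign, at 325, 144 and 287 CPM in control against 629, 416 and 272 CPM with sgRNA, but its groups overlapped (log2 0.81 ± 0.31, edgeR adjusted p = 0.796). The 9 streak and mesoderm markers summed to between 948 and 1383 CPM with sgRNA and to between 742 and 1229 CPM in control, with MEOX1 at 0 in both. None of the 8 tested was called, 3 had an unadjusted p under 0.05, and HAND1 (log2 1.45, edgeR adjusted p = 0.199) and FOXF1 (log2 1.92, edgeR adjusted p = 0.214) had the same sign as APLNR. The 5 pluripotency markers summed to between 496 and 765 CPM with sgRNA and to between 790 and 1022 CPM in control, with 3 at an unadjusted p under 0.05 and none called. The part of either list in the APLNR and APLN values was not tested.

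CXCR4 had 245, 187 and 226 CPM with sgRNA against 362, 286 and 236 CPM in control, with 1 library of each group in the other's range (log2 −0.40 ± 0.20, edgeR adjusted p = 0.982). ACKR3 (log2 −0.07 ± 0.34) and CXCL12 (log2 −0.32 ± 0.27) also overlapped, and each had an edgeR adjusted p of 0.999. The direction for CXCL12 rested on endoderm control replicate 1: without it the value was log2 0.08. APELA was at or near the limit of detection in all 6 libraries, with between 0 and 14 reads, so its value was limited by depth (log2 −0.91 ± 0.95, edgeR adjusted p = 0.999).

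In foregut 0.165% of the 20044 genes tested (33 genes) were called between sgRNA and control, none of them a member. At an unadjusted p under 0.05, 699 genes passed, with APLN and CXCL12 among them, and limma-voom and DESeq2 called 0 of the 6 members. APLN stood at 11.6 and 8.04 CPM with sgRNA against 1.40 and 1.46 CPM in control, 6.82-fold higher, the opposite direction from endoderm (log2 2.77 ± 0.76, edgeR adjusted p = 0.112). Both libraries with sgRNA were above both controls, as for 11.7% of all genes tested. The call depended on which libraries were fitted: APLN was called in a fit of all 12 libraries (log2 2.77, edgeR adjusted p = 0.0293). Its value was log2 2.49 without foregut with sgRNA replicate 1 and log2 3.01 without replicate 2. Each of these fits leaves 1 library with sgRNA, which is assumed to vary as the controls did. The 6 endothelial and blood markers summed to between 80.1 and 111 CPM in foregut control and to between 147 and 194 CPM with sgRNA, with none of the 6 at 0 in either group and none called. The median of their log2 fold changes was 1.16, against −0.06 over all genes tested. Their part in the APLN difference was not tested.

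CXCL12 had 63 and 49 reads in foregut control and no read in either library with sgRNA, which is at least 13.8-fold lower when each library without reads is set to 3 reads. The difference was not called (edgeR adjusted p = 0.9996), but a fit of all 12 libraries called it (edgeR adjusted p = 7.6e-04). Being lower without overlap, as CXCL12 and APELA were, held for 15.7% of all genes. APELA had 11.3 and 7.44 CPM in control and 3.92 and 4.46 CPM with sgRNA (log2 −1.17 ± 0.64, edgeR adjusted p = 0.9996). APLNR was low in all 4 libraries, at 0.974 and 2.77 CPM in control and 5.48 and 3.67 CPM with sgRNA (log2 1.28 ± 1.02, edgeR adjusted p = 0.9996). The ranges of CXCR4 (log2 −0.30 ± 0.38) and ACKR3 (log2 0.02 ± 0.37) overlapped between the groups, both with an edgeR adjusted p of 0.9996. The direction for CXCR4 turned without foregut control replicate 1 (log2 0.09). Beside these values, PDX1, a transcription factor of the pancreatic foregut, was called lower with sgRNA (log2 −2.30 ± 0.49, edgeR adjusted p = 0.0022). Its part in the ligand values was not tested.

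Whether the sgRNA effect differed between foregut and endoderm was tested as an interaction in a fit of the 10 endoderm and foregut libraries. Of 22708 genes tested, 0.194% (44 genes) were called and 1870 had an unadjusted p under 0.05. APLN was called, with a difference of log2 4.79 ± 0.83 (edgeR adjusted p = 0.0349): it was lower with sgRNA in all 3 endoderm libraries and higher in both foregut libraries. CXCL12 was called as well (edgeR adjusted p = 0.0277), with a fitted difference of log2 −7.93 ± 1.17 whose size rests on the foregut libraries without reads and is no bound. The APLN call was lost when endoderm control replicate 1 or 2, any 1 of the endoderm with sgRNA libraries or either foregut control library was left out, with values from log2 4.31 to 5.23 and edgeR adjusted p from 0.0862 to 0.114. The CXCL12 call was lost without endoderm control replicate 2 (adjusted p = 0.0538), endoderm with sgRNA replicate 1 (0.0862), foregut control replicate 1 (0.0699) or foregut control replicate 2 (0.0554), and under limma-voom (adjusted p = 0.0527). For CXCR4 (log2 0.09 ± 0.39), ACKR3 (log2 0.08 ± 0.55), APLNR (log2 0.44 ± 0.62) and APELA (log2 −0.27 ± 1.27), no difference between the stages was detected, each with an edgeR adjusted p above that threshold.

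LTR5 integrants were far from 5 of the 6 genes. The nearest LTR5_Hs or LTR5B integrant of the 1033 listed was 3938 kb from CXCR4, 2399 kb from ACKR3, 1032 kb from CXCL12, 514 kb from APLNR and 3865 kb from APLN. APELA was the exception, with an LTR5_Hs at chr4:165826666-165827635 (GRCh37), 6.55 kb past the 3′ end of the gene, and 3 such integrants within 100 kb. Of 55665 genes placed, 2.15% had an integrant within 10 kb and 10.3% within 100 kb. None of the 3 integrants near APELA had a read in any of the 12 libraries. Only uniquely mapped reads were counted, so any reads that also matched other copies would be missed. Whether these integrants were transcribed therefore cannot be decided at this depth and with this way of counting.

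The other ligands of these receptors and the enzymes and proteoglycans that process them formed a list of 14 genes, of which 5 were called higher and 1 lower in endoderm control than in hESC (14.2% and 11.8% of all genes tested). MIF, a cytokine that also binds CXCR4, rose from a mean of 53.4 ± 4.43 (SD, n = 2) to 136 ± 18.6 CPM (SD, n = 3; log2 1.38 ± 0.20, edgeR adjusted p = 5.1e-05). FURIN, a protease that cleaves apelin precursors (log2 1.32), CXCL14 (1.99), ADM, a peptide ligand of ACKR3 (1.43), and MME, a peptidase that degrades apelin (1.46), were also called higher, and DPP4, a peptidase that inactivates CXCL12, was called lower (−1.36). The list's median log2 fold change was 1.07, against 0.04 over all genes tested. From endoderm to foregut control, 2 of the 14 were called higher and 1 lower (14.1% and 15% of all genes). CD74, the MIF receptor chain, rose from 7.02 ± 2.49 CPM (SD, n = 3) to 352 ± 32.6 CPM (SD, n = 2; log2 5.65 ± 0.33, edgeR adjusted p = 7.35e-06), ADM rose (log2 2.18), and MME fell (log2 −5.89 ± 0.98).

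Genes that carry the signal from these receptors made a list of 25, of which 24 were tested between hESC and endoderm control, with 8 called higher and none lower (14.2% and 11.8% of all genes tested). ELMO1, part of a Rac exchange factor in chemokine-driven migration, rose from 4.74 ± 1.08 (SD, n = 2) to 57.6 ± 1.81 CPM (SD, n = 3; log2 3.63 ± 0.24, edgeR adjusted p = 1.5e-08). RAC2 (log2 3.51), the beta-arrestin gene ARRB1 (2.69), the Rac exchange factor PREX1 (2.59) and the kinase gene PIK3CB (2.11) rose as well, as did GNAI2, GRK2 and GRK5 by between 1.06 and 1.10. Of the 25 tested from endoderm to foregut control, 10 were called lower and 2 higher (15% and 14.1% of all genes). ELMO1 (log2 −1.89), PREX1 (−2.71), PIK3CB (−3.34) and ARRB1 (−1.54) were among those that fell, and the receptor kinase GRK5 (3.64) and ARRB2 (1.09) rose. The list's median log2 fold change was 0.70 at the first step and −0.53 at the second, against 0.04 and −0.09 over all genes tested. Between the libraries with sgRNA, 5 of the 25 were called lower and 1 higher from endoderm to foregut, and 2 of 13 ligand and processing genes were called higher and 1 lower, where 13.4% of all genes were called lower and 12.9% higher.

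The other 21 receptors of the chemokine family were nearly silent. Their summed level stayed between 0.740 and 7.08 CPM in all 12 libraries, while CXCR4, ACKR3 and APLNR alone summed to between 519 and 716 CPM in endoderm control. Only 6 of the 21 had enough reads to be tested between hESC and endoderm control, and the 2 called higher, ACKR2 and CCR9, had no read in hESC. From endoderm to foregut control 1 of 10 tested, ACKR1, was called higher. Of the 19 other chemokine ligands, 10 were tested at the first step, with 2 called higher and 3 lower (14.2% and 11.8% of all genes). CCL2, a monocyte attractant, rose from 0.891 ± 0.330 (SD, n = 2) to 52.3 ± 12.1 CPM (SD, n = 3; log2 5.90 ± 0.34, edgeR adjusted p = 4.1e-09), and CXCL3, CXCL5 and CXCL6 fell. At the second step 4 of 13 were called higher (CXCL16, CX3CL1, CXCL1 and CXCL17) and 1 lower (CCL2, log2 −2.86 ± 0.34), against 14.1% and 15% of all genes. With sgRNA, no gene of these 4 lists was called at either stage, by the same edgeR rule that called 7 genes in endoderm and 33 in foregut. At an unadjusted p under 0.05, 2 of 14 ligand and processing genes, 2 of 24 signalling genes, 0 of 5 receptors and 1 of 7 other ligands passed in endoderm, and 0 of 12, 1 of 25, 0 of 8 and 0 of 13 in foregut.

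Genes whose pattern over the 12 libraries was most like that of each member were found by the root mean square difference of centred log2(CPM + 0.5) values among the 14233 genes that averaged 1 CPM or more. NDRG1 (difference 0.400) and GMPR (0.413) were among the 3 closest to CXCR4, whose own SD was 2.03. BTG2 (0.437), VIM (0.483) and RNASE1 (0.526) were closest to ACKR3, and FGF19 (0.422), PPP1R1B (0.485) and VENTX (0.583) to CXCL12. The streak factor MIXL1 (0.772) was the third closest to APLNR, after ENSG00000132130 (0.701) and RFPL2 (0.716). APLN was closest to RYR1 (0.586), RASEF (0.609) and STARD8 (0.613), less close against its own SD of 1.06. APELA was closest to TENT5B (0.457), LMO3 (0.535) and B3GALT1 (0.580).

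In gastruloids CXCR4 and APLNR were read in many nuclei, and ACKR3 and the ligands in few. The table held 3646 nuclei of 1 library, of which 3422 passed the filters with a median of 16302 UMIs (unique molecules). With 1 library there is no replicate and no test, and intervals cover counting error only. Each nucleus was thinned to 5000 UMIs by a random draw, which left out 225 shallower nuclei and kept 3197. APLNR had a UMI in 46.5% of these (exact binomial 95% interval 44.8% to 48.3%), and in 67.5% without thinning. CXCR4 had a UMI in 36.3% (34.7% to 38.0%), and in 56.6% without thinning. APELA (3.82%, 3.18% to 4.54%), ACKR3 (3.50%, 2.89% to 4.20%) and CXCL12 (3.13%, 2.55% to 3.79%) were read in about the same small share, with overlapping intervals, and in 9.26%, 9.15% and 8.59% without thinning.

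The nuclei were clustered without the members among the variable genes, which gave 8 clusters. Cluster 0 was called axial mesoderm-like from CHRD and TBXT, clusters 1 and 4 paraxial mesoderm-like, and cluster 2 presomitic mesoderm-like from TBX6, DLL3 and DLL1. Cluster 5 was called segmenting mesoderm-like from PCDH8 and RIPPLY1, and cluster 6 neuromesodermal-like from SOX2, NKX1-2 and FGF17, although TBXT was not higher there (log2 −0.31). Of the neural markers, which share SOX2, SOX3 was higher in cluster 6 (log2 1.74) and IRX3 was not (−0.19), so its name is provisional. Cluster 3, led by CCNB2 and PTTG1 and with a median of 8332 UMIs, and cluster 7, led by APOLD1, stayed unnamed. CXCR4 had a UMI in 86.3% of the segmenting (82.1% to 89.7%) and 70.5% of the presomitic mesoderm-like nuclei (66.2% to 74.5%), against 12.4% of the axial mesoderm-like nuclei (9.70% to 15.6%), its lowest share. APLNR was highest in the same clusters, with 89.2% of the segmenting (85.4% to 92.3%) and 82.1% of the presomitic mesoderm-like nuclei (78.4% to 85.4%), but lowest in the neuromesodermal-like nuclei, at 12.8% (9.56% to 16.7%). In the axial mesoderm-like nuclei APLNR was read in 40.2% (35.9% to 44.6%), where CXCR4 had its lowest share.

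The ligands and ACKR3 had their highest shares in other clusters. The share that free RNA gives was not estimated. At the equal depth of the thinned nuclei the lowest share in any cluster was 0 for ACKR3 and CXCL12 and 0.585% for APELA (0.0709% to 2.10%), and cluster shares near these cannot be told from it. ACKR3 was read in 15.3% of the neuromesodermal-like (11.7% to 19.4%) and 6.80% of the axial mesoderm-like nuclei (4.78% to 9.33%), and in 0 of 279 nuclei of cluster 3 and 0 of 117 of cluster 7, counts that allow shares of nuclei with a UMI of up to 1.08% and 2.56% at this depth (3 nuclei of the total). Without thinning the shares there were 0.756% and 0. APELA was read in 11.2% of the neuromesodermal-like (8.14% to 14.8%) and 10.7% of the axial mesoderm-like nuclei (8.15% to 13.7%), and in at most 1.79% of any other cluster. CXCL12 had its highest shares in the axial mesoderm-like nuclei (5.63%, 3.80% to 7.99%) and in paraxial mesoderm-like cluster 1 (5.41%, 3.68% to 7.63%). It was read in 0 of 491 presomitic mesoderm-like nuclei, which by the same rule allows up to 0.611% at this depth, in the nuclei where CXCR4 had 70.5%, and without thinning in 1.17% of them.

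**Figure D4:**
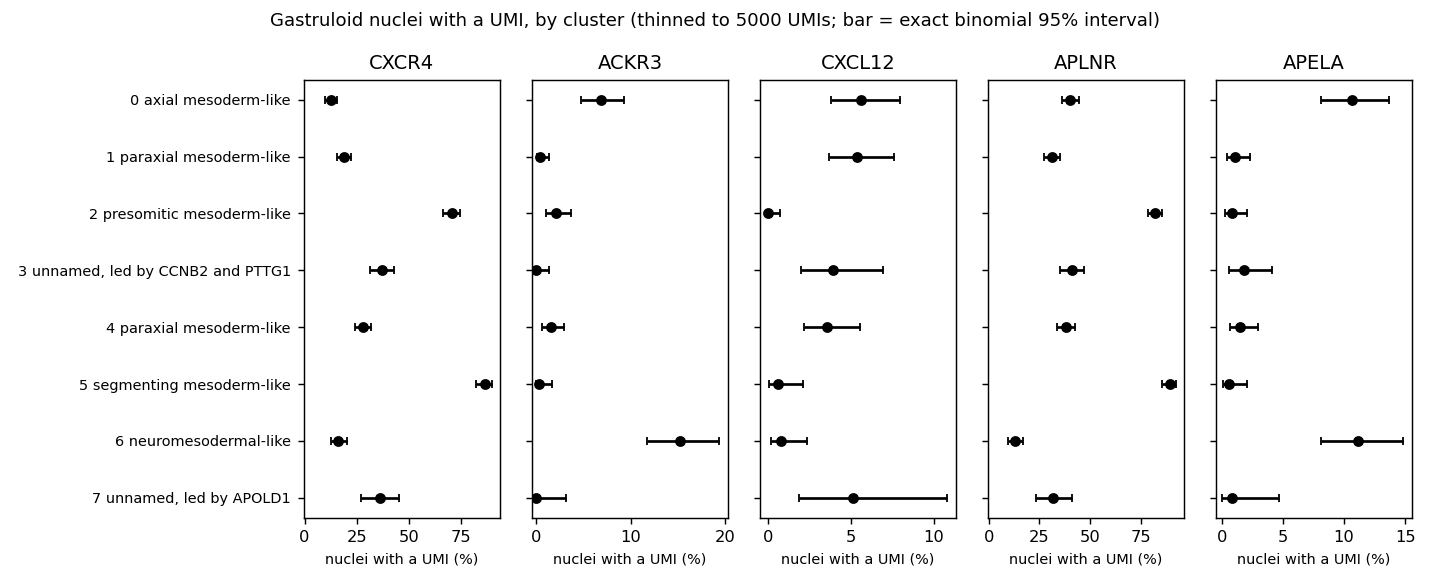
Share of nuclei with at least 1 UMI of each gene (horizontal axis, percent, a scale of its own per panel) in the 8 clusters of gastruloid nuclei, each nucleus thinned to 5000 UMIs. Points are shares and bars exact binomial 95% intervals. CXCR4 and APLNR peak in clusters 2 and 5, ACKR3 and APELA in cluster 6 and cluster 0, and CXCL12 is at 0 in cluster 2.

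Few nuclei with a receptor UMI also had a UMI of its ligand. CXCL12 had a UMI in 34 of 1162 nuclei with a CXCR4 UMI (2.93%, 2.03% to 4.06%) and in 66 of 2035 without (3.24%, 2.52% to 4.11%), a difference within both intervals. Read from the other side, 34.0% of the 100 nuclei with CXCL12 had a CXCR4 UMI (24.8% to 44.2%), against 36.3% of all thinned nuclei. For ACKR3 the counts were 3 of 112 nuclei with (2.68%, 0.556% to 7.63%) and 97 of 3085 without (3.14%), too few to tell apart. APELA was read in 33 of 1487 nuclei with an APLNR UMI (2.22%, 1.53% to 3.10%) and in 89 of 1710 without (5.20%, 4.20% to 6.37%), so the intervals did not overlap. Of the 122 nuclei with APELA, 27.0% had an APLNR UMI (19.4% to 35.8%), against 46.5% of all. Within the clusters richest in APELA the shares were 8.70% against 12.0% in the axial mesoderm-like and 10.6% against 11.3% in the neuromesodermal-like nuclei. In proportion to the shares this gap was smaller in both clusters. In percentage points it was smaller only in the neuromesodermal-like nuclei and slightly wider in the axial mesoderm-like nuclei. Within clusters CXCL12 was read in a larger share of the nuclei with CXCR4 than of those without in 6 of the 7 clusters that held any CXCL12, on between 1 and 8 such nuclei each: in 8 of 64 with (12.5%) and 21 of 451 without (4.66%) in the axial mesoderm-like cluster, in 7 of 103 (6.80%) and 4 of 176 (2.27%) in cluster 3, and in 4 of 42 (9.52%) and 2 of 75 (2.67%) in cluster 7. Paraxial mesoderm-like cluster 1 was the exception, with 4.76% against 5.56%. These counts rest on 1 random thinning. Nuclei marked as doublets were kept. The overall shares and pairs were also computed without them, on 3129 thinned nuclei, with values not given here. Their part in the counts within clusters was not tested.

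Most of the genes that process the ligands or carry the signal had UMIs in the nuclei too. MIF was read in 93.7% of thinned nuclei, PTK2, the focal adhesion kinase, in 77.9%, and MMP2, a protease that cleaves CXCL12, in 45.5%. ELMO1 was read in 32.9%, and GNAI2, an inhibitory G protein subunit, in 53.5%. These are shares at equal depth and not levels per length.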

How the data were processed

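Bulk RNA-seq counts were deposited by the authors as raw reads per gene and per transposable element integrant, made on GRCh37 with HISAT2 and a read counter that kept uniquely mapped reads, per the labels and the study's methods. The gastruloid nuclei were deposited as a matrix of UMI counts, made on GRCh38 with Cell Ranger, and the ATAC peaks as a list of positions called on 1 library with cellranger-arc 2.0.0, per the file headers. Authors' comparisons were not used.

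From the deposited counts, each comparison was fitted separately with edgeR 4.0.16 (quasi-likelihood test, 2-sided, TMM scaling, genes with at least 3 reads in 1 library of the fit, Benjamini-Hochberg adjustment over all genes tested), in R 4.3.3. A gene was called at an adjusted p under 0.05 and a fold over 2. CPM uses TMM library sizes, and CPM per kilobase divides by the union of exons. Alternatives were limma-voom 3.58.1, DESeq2 1.42.0, other scalings and filters, 1 fit of all libraries, a replicate block and leaving out each library. The scripts were tested on simulated data. Replicate numbers were not used as pairs, since deviations of same-numbered libraries correlated only between −0.182 and 0.157.

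Nuclei entered with at least 1000 UMIs and 200 genes and with mitochondrial UMIs of 25% or less. Scrublet marked 72 of them (2.10%) as doublets, which stayed in. Of these, 30 were in axial mesoderm-like cluster 0 (5.60% of its nuclei) and 23 in neuromesodermal-like cluster 6 (5.84%). They were clustered with scanpy 1.11.5 (2000 variable genes without the members, 30 principal components, Leiden resolution 0.5) and named from marker lists. Named genes were the 6 members and genes of the lists given in the text, plus the 3 genes most like each member in pattern. Members and lists were chosen with earlier results of these data known. ACKR3 and APLNR had no entry in the promoter table. One foregut marker is not reported here.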

Additional observations from a re-analysis of the deposited data

Results flagged for a closer look

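The effect of the sgRNA on 2 ligand genes differed between foregut and endoderm by the test of the difference itself. For APLN the foregut effect minus the endoderm effect was 4.79 on the log2 scale, with opposite directions at the stages. For CXCL12 the fitted difference was −7.93, which rests on 2 foregut libraries without a read and gives no bound. Both calls were lost when certain single libraries were left out, with edgeR adjusted p up to 0.114 for APLN and 0.0862 for CXCL12, and the genes called in all then ranged from 0 to 805.

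In the counts of transposable elements, an L2c integrant inside an intron of APELA (GRCh37, chr4:165805390-165805607) had 0 reads in each of the 8 hESC and endoderm libraries and 89 and 31 reads in foregut control and 80 and 53 reads in foregut with sgRNA, 253 reads in all. APELA itself had 349 and 550 reads in hESC, where the integrant had none, and 349, 290, 108 and 102 reads in the foregut libraries in the same order.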

How the results depend on the processing

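The stage calls of the 6 genes kept their direction and their side of the threshold under every alternative, except CXCL12 between endoderm and hESC, which passed the fold limit under limma-voom (−1.05) and in 1 fit of all 12 libraries (−1.01). Causes were not tested. Uncalled values near 0 changed sign: APLN between endoderm and hESC under limma-voom (−0.051), ACKR3 under limma-voom for the sgRNA in endoderm (0.0095), in foregut (−0.0093) and for their difference (−0.017), and ACKR3 under the replicate block for the sgRNA in endoderm (0.019) and for foregut against endoderm with sgRNA (0.080).

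For the sgRNA in endoderm, 1 gene was called by limma-voom, with at least 1 CPM in 2 libraries and in 1 fit of all 12 libraries, 47 by DESeq2 and 186 without a count filter, where APLN was called (−2.05). In foregut 11 genes were called by limma-voom, 2 with at least 1 CPM in 2 libraries and 204 in 1 fit of all 12 libraries, where CXCL12 (−8.25) and APLN (2.77) were called. For the difference between stages 236 genes were called by DESeq2, 139 without a count filter and 86 in 1 fit of all 12 libraries, and limma-voom lost CXCL12 (−6.07, adjusted p = 0.0527). With the replicate block 19 genes were called in foregut and 16 for the difference, where APLN was lost (4.68, adjusted p = 0.0703). No other call of a member changed with the block. In foregut, same-numbered libraries deviated in opposite directions, and a block with crossed numbers, chosen after seeing the data, called 74 genes.

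Leaving out 1 library at a time moved values as follows. For endoderm against hESC, CXCL12 ranged from −1.37 to −0.82 and APLN from −0.39 to 0.38. For the sgRNA in endoderm, genes called ranged from 1 to 9, ACKR3 from −0.40 to 0.30 and CXCL12 from −0.49 to 0.079. For the sgRNA in foregut, genes called ranged from 16 to 527, CXCR4 from −0.63 to 0.086, ACKR3 from −0.27 to 0.27 and APLN from 2.49 to 3.01. For foregut against endoderm control, ACKR3 ranged from −0.66 to 0.044. For foregut against endoderm with sgRNA, genes called ranged from 3484 to 8261 and ACKR3 from −0.56 to 0.090. For the stage difference in sgRNA effect, genes called ranged from 0 to 805, CXCR4 from −0.23 to 0.51, ACKR3 from −0.28 to 0.42, CXCL12 from −8.33 to −7.43, APLNR from −0.075 to 1.37, APLN from 4.31 to 5.23 and APELA from −0.71 to 0.31. The count in endoderm was 1 without control replicate 1 or 2 or sgRNA replicate 1, that in foregut 16 without control replicate 1 and 527 without sgRNA replicate 1, and that for the difference 0 without endoderm control replicate 2, endoderm with sgRNA replicate 1 or foregut control replicate 1 and 805 without foregut with sgRNA replicate 1.

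Thinned to 3000 UMIs, to 10000 UMIs and unthinned, the shares of nuclei were 29.5%, 50.7% and 56.6% for CXCR4, 2.10%, 5.79% and 9.15% for ACKR3, 2.13%, 5.53% and 8.59% for CXCL12, 35.2%, 62.5% and 67.5% for APLNR and 2.37%, 6.74% and 9.26% for APELA. CXCL12 in nuclei with CXCR4 was at 0.824%, 4.26% and 7.74%, APELA in nuclei with APLNR at 1.12%, 4.39% and 8.35%, and CXCL12 in nuclei with ACKR3 at 11.5% unthinned. Without the mitochondrial limit 3255 nuclei were thinned in place of 3197, and the random thinning was drawn anew. ACKR3 was then at 2.89% and CXCL12 in nuclei with CXCR4 at 1.88%. The limit and the new draw cannot be told apart in these values. At resolution 1.0 the highest shares in a cluster were 22.2% for ACKR3, 15.2% for CXCL12 and 54.5% for APELA. With LTR5A counted too, the nearest integrant was 1146 kb from CXCR4 and 2290 kb from APLN. Depth limits the values that rest on few reads, such as APELA in endoderm and CXCL12 in foregut.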

Other observations

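When the gastruloid nuclei were clustered more finely (Leiden resolution 1.0, 17 clusters), 1 cluster of 33 nuclei, all from the axial mesoderm-like cluster, held the highest share of nuclei with APELA. It was singled out after its values were seen, and APELA was not used to form it. APELA had a UMI in 54.5% of these nuclei at equal depth (exact binomial 95% interval 36.4% to 71.9%) and a summed level of 274 CPM, against 9.14 CPM in all other nuclei. CXCL12 had its highest share of any cluster there as well, at 15.2% (5.11% to 31.9%). The cluster was led by XACT, ADAMTS18, CADPS and FN1. It held more EPCAM (log2 3.18 over the other nuclei), FOXA1 (2.34) and FOXA2 (1.40), genes of epithelial and endoderm cells. Of the axial mesoderm markers, which include FOXA2, CHRD was higher too (1.39) and NOTO was about level (0.09). SHH (−0.32), TBXT (−0.66) and NOG (−0.83) were not higher. None of the 33 nuclei was marked as a doublet, and their median was 23084 UMIs, against 16302 over all nuclei. The cluster was left unnamed.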
